A study of Gallus gallus with 20 samples.

Results

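The liver of methionine-deficient broilers was compared with their breast muscle, gene by gene. The groups were the 5 liver libraries and the 5 breast muscle libraries from the deficient diet, which are 10 of the 20 libraries of the study, chosen by their labels. Breast muscle here is the pectoralis major, the large white flight muscle. All birds were Ross 708 males, a commercial meat strain, sampled at post-hatch day 35. Both groups came from birds on the L-methionine-deficient diet, fed between weeks 3 and 5 of age, and no library on the control diet entered the main comparison. The 5 liver and 5 breast libraries on the control diet serve only in the last comparison. Each tissue and diet has 5 libraries, and the labels do not link a liver to a breast library of one bird. The main tests treated the 10 libraries as independent, so any pairing by bird is left out of their p-values. Snap-frozen whole tissue was used, so fewer cells of a type and less RNA per cell cannot be told apart.

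Methionine is an essential amino acid. Besides its use in protein, it is activated to S-adenosylmethionine, the main methyl donor of the cell, and the homocysteine left after methyl transfer is either remethylated or passed on through transsulfuration to cysteine, glutathione and taurine. In mammals the liver carries most of this traffic, while skeletal muscle holds most of the body's protein. In birds the liver is also the main site of fatty acid synthesis and of purine synthesis, the route by which nitrogen leaves as urate.

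Levels are FPKM, sequenced fragments normalised for transcript length and library size, scaled between the 10 libraries by their median ratio. Differences are liver minus breast on the log2(scaled FPKM + 1) scale, so they understate the change of a gene near 0 in 1 tissue. A gene was called where its difference passed 2-fold in either direction in limma's treat test, at an adjusted p under 0.05 over the 10576 genes tested. It was described as within 2-fold where the 95% interval of its difference lay between -1 and 1.

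Depth was similar between the tissues. Coverage times transcript length gave 1.65 to 2.09 assigned gigabases in the liver libraries and 1.40 to 1.85 in the breast libraries. An FPKM of 1 or more was reached by 9995 ± 112 genes in liver and 9622 ± 333 in breast (SD over 5 libraries each). That difference had p = 0.0317 in an exact permutation test and 0.0794 after adjustment for 4 library values. Markers matched the labelled tissue in each of the 10 libraries. The summed FPKM of the 21 hepatocyte markers found was 18943 to 39556 in liver and 10.3 to 38.1 in breast. All 19 that were tested were called higher in liver, as were 12.3% of all genes tested. Of the 21 found, 1 was listed at 0 in every liver library and was not tested. A marker near 0 in one tissue passes the filter only through the other, so such calls are partly built in. The sum of the 9 myocyte markers found was 0.767 to 1.28 in liver and 50803 to 64541 in breast, and all 9 were called lower in liver, as were 12% of all genes tested. Liver replicate 1 stood apart in its mitochondrial share, 36.1% of the FPKM sum, against 16.1% to 18.9% in the other 4. This share covers all genes of the mitochondrial genome. The 12 mitochondrially encoded protein genes alone took 11.5% to 14.9% over the 5 liver libraries. Without liver replicate 1, 1286 genes were called higher in liver and 1248 lower.

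With scaling, which brings the median difference near 0, genes past 2-fold were near equal in number in each direction. Of the genes tested, 1304 (12.3%) were called higher in liver and 1272 (12%) lower, 24.4% in all, while 5014 (47.4%) lay within 2-fold. Without scaling the counts were 1461 higher and 1116 lower, and with quantile normalization 1245 and 1374, so the split depended on the scaling. With the main scaling and against a difference of 0 in place of 2-fold, 36% were called higher and 35.2% lower, 71.2% in all. The groups did not overlap in 29.7% of genes with liver higher and in 29% with liver lower, 58.7% in all. Differences of 8-fold or more were called in 502 genes with liver higher and in 401 with liver lower, and of 64-fold or more in 113 and 76 genes. A scaled FPKM of at least 1 in every liver library with one under 0.1 in every breast library was found in 191 genes, and the reverse in 157. On the leading principal component, with 86.6% of the variance, the liver libraries lay at 91.7 or above and the breast libraries between -101 and -89.3. Pearson correlations across genes, which are not independent replicates, were 0.932 to 0.965 within liver, 0.956 to 0.972 within breast and 0.499 to 0.548 between the tissues.

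The gene with the largest called difference in favour of liver was GAL9 (ENSGALG00000019845, galGal4 chromosome 3, 107060378 to 107063435), an avian beta-defensin, a small antimicrobial peptide. It had 9797, 11409, 13679, 11716 and 10624 scaled FPKM in the liver libraries, against 0, 0.133, 0.186, 0.507 and 0.107 in the breast libraries (log2 difference 13.24 ± 0.13 SE, treat adjusted p = 4.25e-14). All 5 liver libraries were high and all 5 breast libraries near or at 0. Its relatives GAL8 and GAL10, which were named after their values were seen, were listed at 0 in every breast library and had 346 to 474 and 984 to 1913 scaled FPKM in liver. FABP1, the liver fatty acid binding protein, had 8402, 7263, 5419, 5779.7 and 9432 scaled FPKM in liver and 0.166, 0.603, 0.546, 0.5 and 5.01 in breast (log2 difference 11.85 ± 0.39). Breast replicate 5 was the highest of its group and still far under the lowest liver library. SPP2, a secreted phosphoprotein, had a log2 difference of 11.76 ± 0.13.

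At the other end stood the contractile proteins of fast muscle. MYL1, an essential light chain of fast myosin, was listed at 0 in every liver library and had 16732, 22659, 31265, 24779 and 19579 scaled FPKM in the breast libraries. TNNI2, the inhibitory troponin subunit of fast fibres, had 0.187, 0.0721, 0.228, 0.0656 and 0.0757 scaled FPKM in liver and 11608, 12646, 17879, 15356 and 9856 in breast (log2 difference -13.52 ± 0.16, treat adjusted p = 5.19e-14). The troponin T and C subunits TNNT3 and TNNC2 differed by -13.51 ± 0.15 and -13.00 ± 0.12. ACTA1, skeletal actin, was not tested because its estimate failed in breast replicate 3. It had 0.508 to 1.68 scaled FPKM in the liver libraries and 38877 to 63874 in the other 4 breast libraries.

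**Figure D1:**
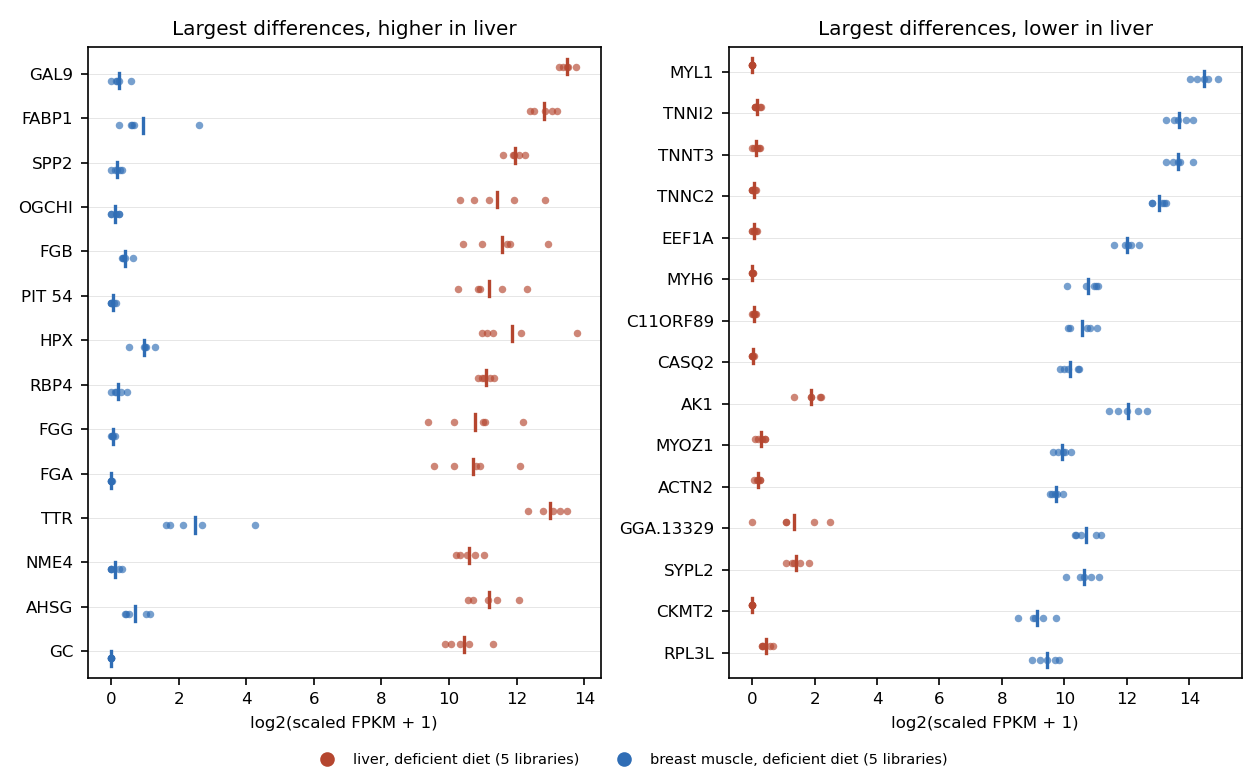
Scaled FPKM of 14 genes called higher in liver and 15 called lower, from the largest differences in each direction, on a log2(scaled FPKM + 1) axis. Each row is a gene, dots are the 5 liver libraries (red, upper) and the 5 breast libraries (blue, lower), and the bar is their mean. The liver values of TNNI2 stay at or under 0.228 scaled FPKM and the breast values of GAL9 at or under 0.507.

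Genes of plasma proteins made by hepatocytes were mainly higher in liver. This list was made of liver products, so its direction is partly built in. Of 36 tested plasma proteins of hepatocytes, 32 were called higher in liver and 0 lower. Their median log2 difference was 7.60 against 0.02 over all genes tested. The 38 plasma protein genes found took 4.30% to 12% of the FPKM sum of a liver library and 0.05% to 0.09% of a breast library. Failed estimates, such as that of serum albumin in liver, count as 0 in such shares. TTR, the thyroid hormone carrier, had 11590.1, 9859.5, 7029, 8635 and 5176 scaled FPKM in liver and 3.36, 5.46, 2.1, 2.35 and 18.1 in breast (log2 difference 10.50 ± 0.45). The 3 fibrinogen chains moved as a set, with differences of 11.14 for FGB, 10.70 for FGG and 10.70 for FGA. GC, the vitamin D carrier, was listed at 0 in every breast library and had 1547, 2493, 1064, 1279.9 and 949 scaled FPKM in liver. ALB, serum albumin, could not be tested, because its estimate failed in all 5 liver libraries.

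Coagulation and complement followed the same split, with 29 of 32 genes called higher in liver and 1 lower (median 5.24). The lower one was F13A1, the fibrin cross-linking factor XIII subunit, at -3.95 ± 0.16. Prothrombin, F2, differed by 8.48 ± 0.19, plasminogen, PLG, by 8.57 ± 0.26, and the lectin pathway opsonin MBL2 by 8.97 ± 0.25. Of 15 acute phase genes 10 were called higher in liver and 0 lower (median 9.31), several of them shared with the plasma protein list. With the replicate block, and without liver replicate 2 or breast replicate 4, 1 was called lower. HPX, the haem scavenger hemopexin, had 4426, 14173, 2208, 2493 and 2026 scaled FPKM in liver and 1.05, 1.02, 1.44, 0.434 and 0.98 in breast (log2 difference 10.89 ± 0.46). Liver replicate 2 was well above the other 4 for HPX. PIT 54, the soluble haemoglobin-binding protein of chicken plasma, differed by 11.13 ± 0.31 and OGCHI, an ovoglycoprotein of the orosomucoid family, by 11.28 ± 0.39. Of 21 apolipoprotein and lipid export genes, 12 were called higher and 1, the lipoprotein receptor VLDLR, lower (-2.50 ± 0.15). APOB, the scaffold of very low density lipoprotein, differed by 6.39 ± 0.16. APOA1, the main high density lipoprotein apolipoprotein, was abundant in both tissues, with 12857, 10345, 10059.8, 9859 and 7047 scaled FPKM in liver and 657, 1249, 1346, 753 and 2452 in breast (log2 difference 3.09 ± 0.32).

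**Figure D2:**
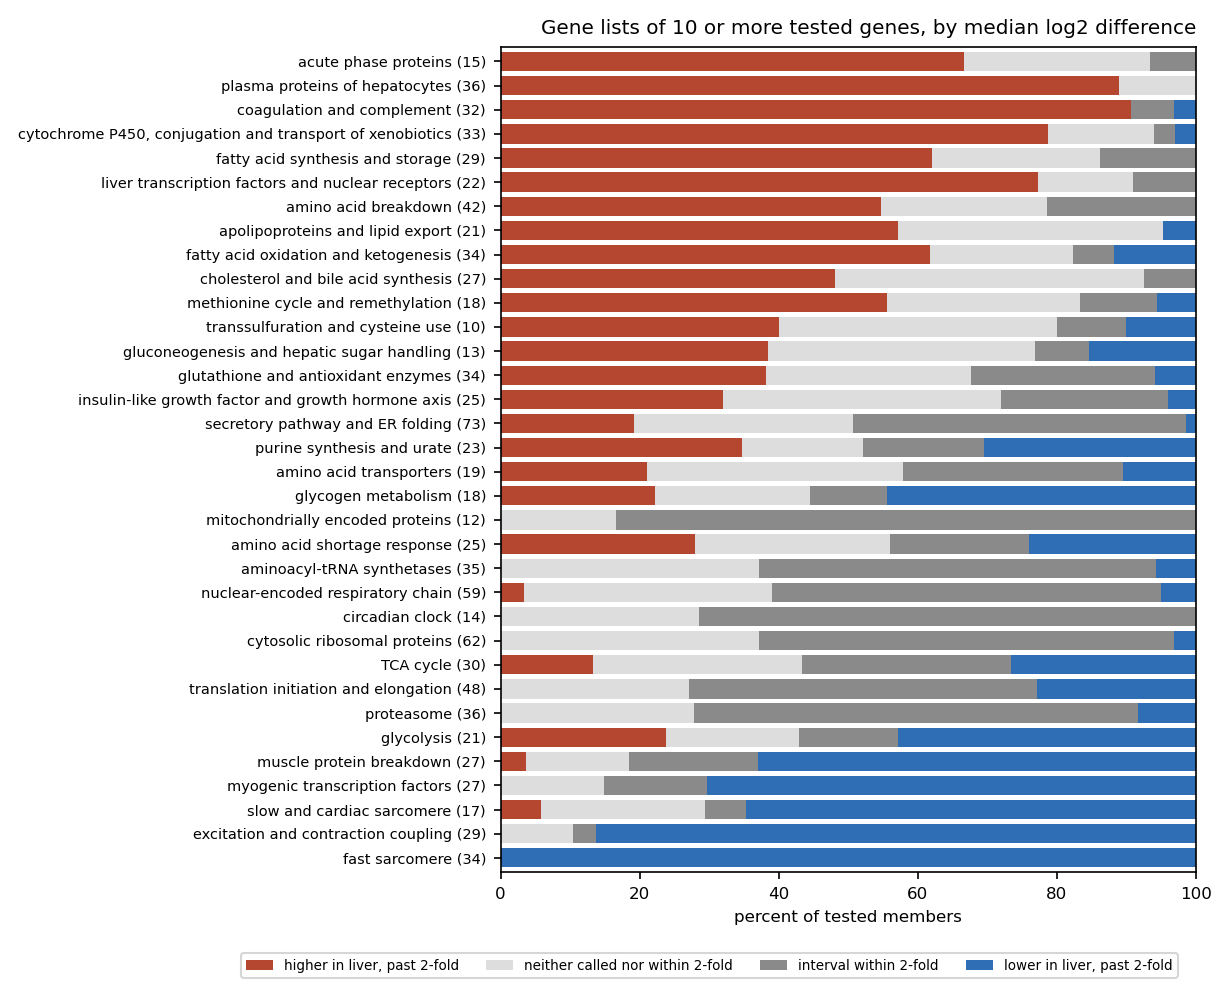
Share of tested members of each pathway list that were called higher in liver (red), lower in liver (blue), within 2-fold (dark grey) or none of these (light grey). Lists of 10 or more tested genes run from the highest to the lowest median log2 difference, with the number tested in brackets. In the fast sarcomere list all 34 tested members were lower in liver, and in the mitochondrially encoded list 10 of 12 lay within 2-fold.

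The enzymes that turn methionine over leaned towards liver on the deficient diet. Of 18 tested genes of the methionine cycle and remethylation, 10 (55.6%) were called higher in liver and 1 lower, 2 lay within 2-fold and 5 were none of these, with a median log2 difference of 1.74. MAT1A (ENSGALG00000002479, galGal4 chromosome 6, 3915004 to 3932026), the methionine adenosyltransferase that makes S-adenosylmethionine in liver, had 647, 1133, 420.5, 660.4 and 208 scaled FPKM in the liver libraries, against 7.02, 12.1, 8.15, 9.3 and 8.54 in the breast libraries. The groups did not overlap (log2 difference 5.75 ± 0.37, treat adjusted p = 3.05e-07). MAT2B, the regulatory subunit of the form of the enzyme found outside liver, pointed the other way, with 9.89, 10.2, 12.3, 10.8 and 14.4 scaled FPKM in liver and 29.4, 25.8, 28.4, 31.3 and 26.4 in breast. Its difference of -1.24 ± 0.11 did not pass 2-fold (treat adjusted p = 0.118) but did so without liver replicate 5, at -1.31. MAT2A, the catalytic subunit of that form, was not analysed here.

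Downstream of S-adenosylmethionine, GNMT (ENSGALG00000008575, galGal4 chromosome 3, 15379651 to 15381158), which methylates glycine and so disposes of surplus methyl groups, had 257, 185, 120.3, 113 and 114 scaled FPKM in liver and 9.41, 11.1, 8.49, 12.7 and 11.9 in breast (log2 difference 3.70 ± 0.23, treat adjusted p = 7.07e-07). AHCY (ENSGALG00000002030, galGal4 chromosome 20, 1643850 to 1862123), which releases homocysteine from S-adenosylhomocysteine, was abundant in both tissues, with 340.4, 363, 405, 417 and 493 scaled FPKM in liver and 32.7, 64.9, 55.2, 70.4 and 85.9 in breast (log2 difference 2.74 ± 0.23). Its relatives split. AHCYL1 was higher in liver by 2.06 ± 0.11, whereas AHCYL2 had a mean of 4.1 scaled FPKM in liver and 11.6 in breast and was not called. It was called lower with library weights, a pseudocount of 0.1 or quantile normalization, and without breast replicate 5. Among the other small-molecule methyltransferases, HNMT, which inactivates histamine, and METTL7A were called higher in liver, at 2.07 ± 0.18 and 2.98 ± 0.19. PEMT, which makes phosphatidylcholine by methylation, averaged 90.98 ± 13.1 scaled FPKM in liver and 33.4 ± 10.9 in breast (SD, n = 5 each) and was not called. It was called with the replicate block (treat adjusted p = 0.0234), library weights or unscaled values, and without breast replicate 3. GAMT, which makes creatine, lay within 2-fold at 0.27 ± 0.27.

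Of the 2 routes that return homocysteine to methionine, one was called and the other was not, and the difference between them was not tested. BHMT (ENSGALG00000004518, galGal4 chromosome Z, 22291807 to 22310732), which uses betaine, had 261, 422, 134, 176 and 61.3 scaled FPKM in liver and 42.5, 47.1, 50.7, 66.2 and 54.04 in breast. The difference of 1.74 ± 0.41 was not called (treat adjusted p = 0.18), and the lowest liver library, replicate 5, lay within the range of the breast libraries. Without that library BHMT was called, with a difference of 2.11. MTR, the vitamin B12-dependent methionine synthase, had 8.99, 9.59, 10.6, 9.59 and 10.3 scaled FPKM in liver and 2.09, 1.66, 1.71, 2.01 and 2.23 in breast, and was called at 1.88 ± 0.09 (treat adjusted p = 3.10e-06). Its reactivating enzyme MTRR lay within 2-fold at -0.45 ± 0.11. The betaine supply and use genes CHDH and DMGDH were called higher in liver, at 1.74 ± 0.22 and 2.79 ± 0.34, and ALDH7A1, a betaine aldehyde dehydrogenase among other roles, at 1.51 ± 0.16. The ALDH7A1 call was lost without breast replicate 1.

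Folate enzymes were called in both directions. SHMT1 (ENSGALG00000005046, galGal4 chromosome 14, 5095907 to 5101357), the cytosolic serine hydroxymethyltransferase, had 161, 191, 153, 211 and 224 scaled FPKM in liver and 4.28, 4.44, 3.97, 4.65 and 4.38 in breast (log2 difference 5.13 ± 0.12). The cytosolic trifunctional enzyme MTHFD1 (ENSGALG00000011797, galGal4 chromosome 5, 52834900 to 52872470) had 82.7, 169, 159, 184 and 240.3 scaled FPKM in liver and 3.86, 3.28, 4.51, 3.87 and 3.45 in breast (log2 difference 5.06 ± 0.23). MTHFD2 (ENSGALG00000013480, galGal4 chromosome 22, 2831856 to 2838321), its mitochondrial counterpart, was the one member of the methionine list called lower in liver, with 1.42, 1.84, 1.95, 2.8 and 1.85 scaled FPKM in liver and 23.95, 31.2, 40.2, 26.8 and 13.6 in breast (log2 difference -3.18 ± 0.24, treat adjusted p = 7.21e-06). For all 3 genes the groups did not overlap.

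Of 10 tested genes of transsulfuration and cysteine use, 4 were called higher in liver and 1 lower (median 1.40). CBS (ENSGALG00000016196, galGal4 chromosome 1, 109034823 to 109059060), which joins homocysteine to serine, had 6.97, 11.9, 9.16, 11.2 and 10.6 scaled FPKM in liver and 0.0301, 0.4, 0.139, 0.0461 and 0.835 in breast (log2 difference 3.10 ± 0.18, treat adjusted p = 9.70e-07). CTH, the next enzyme, which releases cysteine, had 59.8, 117, 57.02, 73.2 and 44.1 scaled FPKM in liver and 18.6, 24.9, 28.99, 22.96 and 18.1 in breast. The CTH groups did not overlap, but its difference of 1.53 ± 0.23 did not pass 2-fold (treat adjusted p = 0.0864). It did so without liver replicate 5, at 1.68, and with library weights, the replicate block or unscaled values. CBS was near 0 in breast, whereas CTH was present in both tissues.

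Cysteine oxidation showed a pattern of its own. CDO1 (ENSGALG00000002358, galGal4 chromosome Z, 72766806 to 72775887), which oxidises cysteine, had 718, 891, 332, 461 and 209 scaled FPKM in liver and 10.8, 13.8, 11.1, 9.97 and 10.5 in breast (log2 difference 5.24 ± 0.33, treat adjusted p = 3.65e-07). CSAD, which carries its product on towards taurine, was called higher in liver as well, with 13.6, 11.8, 12.95, 13.3 and 18.7 scaled FPKM in liver and 1.34, 2.04, 1.59, 1.96 and 1.81 in breast (log2 difference 2.45 ± 0.13). GADL1 (ENSGALG00000011447, galGal4 chromosome 2, 40463088 to 40532241), a related decarboxylase that in mammals makes beta-alanine, the precursor of the muscle dipeptides carnosine and anserine, was called lower in liver. It had 0.193, 0.303, 0.34, 0.526 and 0.34 scaled FPKM in liver and 27.3, 51.96, 45.01, 29.9 and 32.4 in breast (log2 difference -4.80 ± 0.17, treat adjusted p = 1.87e-09). The taurine transporter SLC6A6 was called higher in liver at 1.90 ± 0.27. TST, the sulfurtransferase rhodanese, was higher in liver by 2.38 ± 0.18, while MPST, ETHE1 and GOT1 were not called and SQRDL lay within 2-fold.

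**Figure D3:**
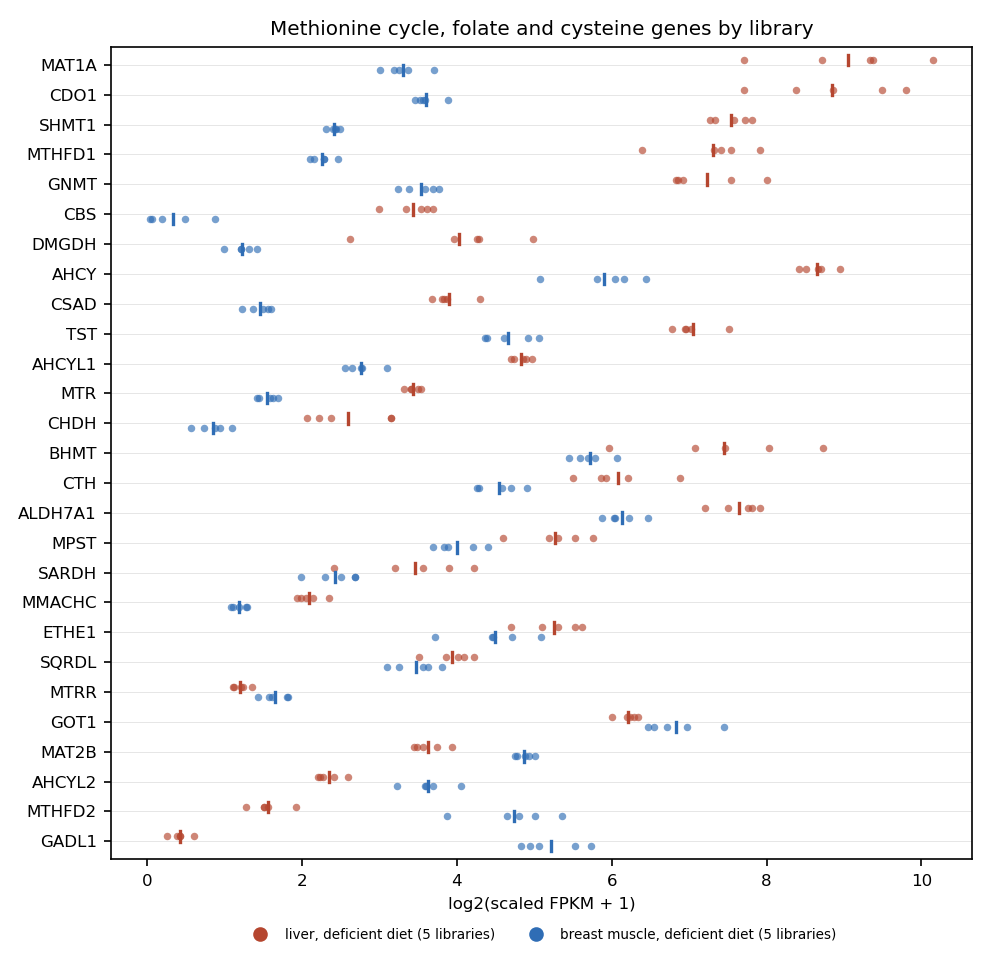
Scaled FPKM of 27 tested genes of the methionine cycle, folate and cysteine lists on a log2(scaled FPKM + 1) axis, ordered by their difference. Dots are the 5 liver (red, upper) and 5 breast (blue, lower) libraries and bars their means. MAT1A and CDO1 lie at the top with the widest gap in favour of liver, GADL1 and MTHFD2 at the foot with the gap reversed, and the BHMT dots of liver spread from 61.3 to 422 scaled FPKM.

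Glutathione, where much cysteine goes, leaned towards liver, with 13 of 34 genes called higher and 2 lower (median 0.90), and 9 within 2-fold. GCLC, the rate-limiting ligase, differed by 2.91 ± 0.17, and MGST1, a microsomal glutathione transferase, had 564, 541, 554, 492 and 369.7 scaled FPKM in liver and 31.6, 25.4, 23.2, 26.7 and 39.9 in breast. Both entries with the symbol GSTA3 were called higher in liver, and as near copies they may share reads. The 2 genes called lower in liver were GPX7 and GPX8, peroxidases of the endoplasmic reticulum, at -2.12 ± 0.13 and -1.90 ± 0.13. CHAC1, which degrades glutathione, averaged 6.31 ± 4.65 scaled FPKM in liver and 30.1 ± 21.3 in breast (SD, n = 5 each) and was not called.

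Creatine, the other large user of methyl groups, had called genes in transport and use. GATM, the first enzyme of its synthesis, averaged 75.8 ± 33.6 scaled FPKM in liver and 38.7 ± 17.4 in breast (SD, n = 5 each) and was not called. SLC6A8, the creatine transporter, had 4.83, 6.85, 4.29, 3.93 and 6.62 scaled FPKM in liver and 62.9, 145, 186, 231 and 141 in breast (log2 difference -4.52 ± 0.30). CKMT2, the sarcomeric mitochondrial creatine kinase, was listed at 0 in every liver library and had 504, 537, 847, 636 and 361 scaled FPKM in breast. Of 5 tested creatine genes 0 were called higher in liver and these 2 were called lower. CKM, the cytosolic creatine kinase of muscle, was not analysed here.

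Genes that respond to amino acid shortage were found on both sides, with 7 of 25 called higher in liver and 6 lower (median -0.15). PHGDH, the first enzyme of serine synthesis, had 425, 515, 517, 613 and 502 scaled FPKM in liver and 1.21, 12.8, 6.66, 1.68 and 2.62 in breast (log2 difference 6.77 ± 0.43), and PSAT1, the next one, differed by 6.43 ± 0.14. The files give the symbol PSPH, that of the last enzyme, to an entry that differed by 7.27 ± 0.30, and whether it encodes that enzyme was not checked here. This entry had 6824, 11191, 11148, 9866 and 25589 scaled FPKM in liver, so its level in replicate 5 was well above the other 4 libraries. Both entries with the symbol SLC7A5, the carrier for leucine and methionine, were called lower in liver, at -2.55 and -3.01. EIF4EBP1, the repressor of cap-dependent translation, was lower too, with 306, 221, 255, 211 and 256 scaled FPKM in liver and 679, 707, 932, 767 and 806 in breast (log2 difference -1.64 ± 0.13).

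Amino acid breakdown was higher in liver for 23 of 42 genes and lower for 0, with 9 within 2-fold (median 2.08). TAT, which starts tyrosine breakdown, had 549, 937, 329.9, 722 and 671 scaled FPKM in liver and 0, 0, 0.0491, 0 and 0 in breast, and HPD, the second step, had 1009.9, 1151, 1268, 1229 and 1107 in liver and 0.69, 2.96, 2.13, 1.07 and 9.87 in breast. FAH and HGD, later steps of the same route, differed by 5.97 ± 0.16 and 5.95 ± 0.19. Of 19 transporters of amino acids 4 (21.1%) were called higher in liver and 2 (10.5%) lower, beside 12.3% and 12% of all genes tested. The 2 lower ones were the SLC7A5 entries. SLC38A4, a hepatic carrier of neutral amino acids, had the largest difference among them, 6.73 ± 0.23.

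Purine genes were called in both directions, 8 of 23 higher in liver and 7 lower (median 0.28). The synthesis genes PRPS2, PPAT, GART and PURH were higher in liver, at 6.09 ± 0.14, 5.35 ± 0.15, 3.55 ± 0.34 and 5.85 ± 0.26. XDH, which makes urate, had 105, 232, 122, 152 and 213 scaled FPKM in liver and 0.234, 0.508, 0.323, 0.476 and 0.393 in breast (log2 difference 6.84 ± 0.20). AMPD1, which deaminates AMP in the purine nucleotide cycle of muscle, had 0.0606, 0.0713, 0.0244, 0.0842 and 0.0982 scaled FPKM in liver and 253, 297, 531, 354 and 244 in breast (log2 difference -8.24 ± 0.19), and ADSSL1, which returns IMP towards AMP, differed by -4.03 ± 0.11. HPRT1, the salvage enzyme, was lower in liver by -1.91 ± 0.12 and PRPS1, the other form of the phosphoribosyl pyrophosphate synthetase, by -3.44 ± 0.15.

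Lipid genes were mainly hepatic. Of 29 genes of fatty acid synthesis and storage 18 were called higher in liver and 0 lower (median 2.38). FASN, fatty acid synthase, had 117, 155, 36.9, 56.3 and 50.6 scaled FPKM in liver and 6.43, 5.98, 5.51, 6.07 and 4.09 in breast (log2 difference 3.47 ± 0.34), with liver replicates 1 and 2 above the other 3. ACL, ATP citrate lyase, differed by 4.78 ± 0.14, SCD, the stearoyl-CoA desaturase, by 4.58 ± 0.59 and ELOVL6, an elongase, by 6.25 ± 0.15. Cholesterol and bile acid synthesis had 13 of 27 genes called higher and 0 lower (median 1.88), led by HMGCS1, the cytosolic HMG-CoA synthase of sterol synthesis, at 6.44 ± 0.21.

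Fatty acid oxidation and ketogenesis were higher in liver in 21 of 34 genes and lower in 4 (median 1.92). BDH1, which interconverts acetoacetate and hydroxybutyrate, was lower in liver by -2.92 ± 0.20. UCP, the avian uncoupling protein, had 0.119, 0.0419, 0.0453, 0.117 and 0.0457 scaled FPKM in liver and 358, 415, 599.7, 486 and 332 in breast (log2 difference -8.64 ± 0.15). PPAR, the files' symbol for the receptor PPARA that governs fatty acid oxidation, was higher in liver by 4.19 ± 0.15.

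Glycolysis had called members in both directions, with 5 of 21 genes higher in liver and 9 lower (median -1.44). PKM, the muscle pyruvate kinase, had 17.96, 17.5, 15.9, 16.8 and 18.6 scaled FPKM in liver and 5662, 6828, 9559, 7435 and 4025 in breast (log2 difference -8.46 ± 0.20). LDHA, the lactate dehydrogenase of white muscle, had 335, 294, 202, 233 and 129 scaled FPKM in liver and 10509, 12012, 18752, 14593 and 9879 in breast (log2 difference -5.81 ± 0.26). Of 13 genes of gluconeogenesis and hepatic sugar handling 5 were called higher in liver and 2 lower (median 1.39). PCK1, the cytosolic PEP carboxykinase of gluconeogenesis, had 35.2, 72.8, 167, 219 and 584 scaled FPKM in liver and 0, 0.0715, 0, 0.0302 and 0 in breast (log2 difference 7.12 ± 0.58). In glycogen metabolism 4 of 18 genes were called higher in liver and 8 lower. GYS2, liver glycogen synthase, was listed at 0 in every breast library and averaged 52.04 ± 11.9 scaled FPKM in liver (SD, n = 5), while PHKG1, the catalytic subunit of muscle phosphorylase kinase, differed by -5.42 ± 0.21. GAPDH was not tested, because its estimate failed in all 5 breast libraries.

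Pairs of related genes were listed, the first taken as the liver form and the second as the muscle form. The ratio of each pair was taken within a library. Of 30 listed pairs 14 could be used, and 13 differed between the tissues at an adjusted p under 0.05 by an exact permutation test over all labelings of the libraries. The smallest p this test allows, with the libraries taken as independent, is 0.00794. In 12 of the 13 the first-named gene weighed more in liver. FBP1 over FBP2, the fructose bisphosphatases of liver and muscle, had a log2 ratio of 7.95 ± 0.161 in liver and -7.06 ± 0.572 in breast (SD, n = 5 each). For FABP1 over FABP3 the log2 ratio was 11.6 ± 0.835 in liver and -7.16 ± 1.21 in breast. Phosphofructokinase (PFKL over PFKM) and lactate dehydrogenase (LDHB over LDHA) differed by 10.49 and 9.85 on the log2 scale. The AMP deaminases (AMPD2 over AMPD1) differed by 8.79 and the actinins (ACTN4 over ACTN2) by 10.14. AMPD2 and ACTN4 themselves were not called between the tissues, with log2 differences of 0.55 and 0.60. The exception was the retinoid X receptor pair, where RXRA over RXRG was 1.02 ± 0.349 in liver and 4.03 ± 0.473 in breast (SD, n = 5 each).

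**Figure D4:**
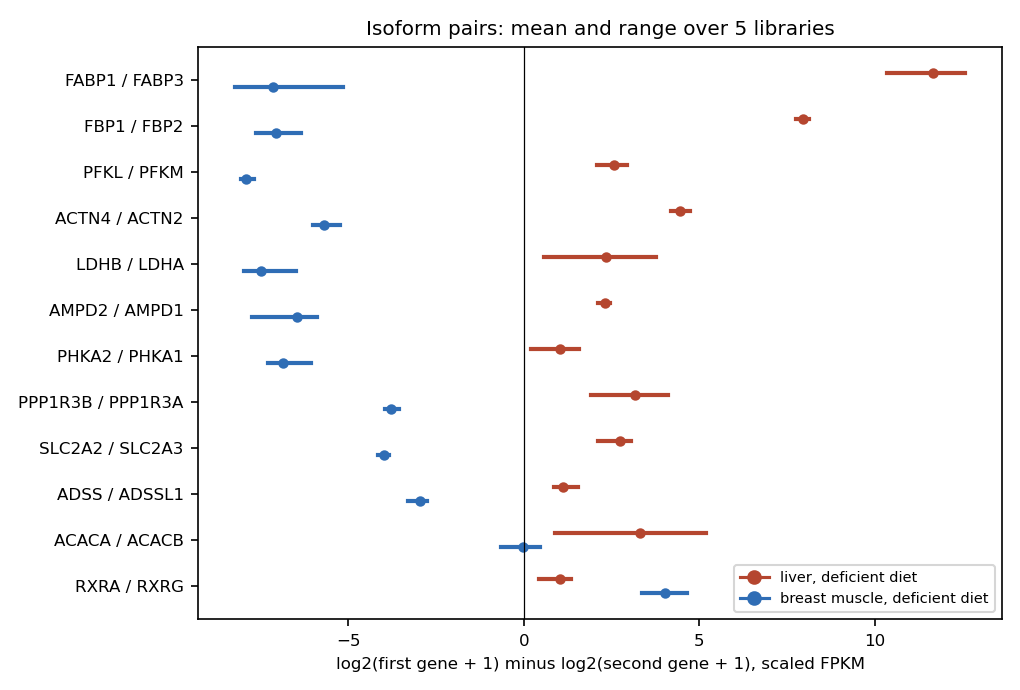
Log2 ratio of the first to the second gene of 12 isoform pairs, each as log2(scaled FPKM + 1), with the mean (dot) and the range (line) over the 5 liver libraries (red, upper) and the 5 breast libraries (blue, lower). The liver and breast ranges are apart in all 12 pairs, and RXRA over RXRG is the pair with the higher ratio in breast.

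The contractile apparatus marked the breast. All 34 tested genes of the fast sarcomere list were called lower in liver (median -6.42). The 36 found took 0.03% of the FPKM sum of a liver library against 14.1% to 22.2% of a breast library, with failed estimates counted as 0. Of 17 slow and cardiac sarcomere genes 11 were called lower in liver and 1 higher. The exception was MYL4, an atrial and embryonic myosin light chain, with 46.4, 33.5, 63.5, 40.3 and 86.2 scaled FPKM in liver and 0.409, 0.251, 0.332, 1.06 and 0.573 in breast (log2 difference 5.11 ± 0.24). Genes of the myosin heavy chain family are near copies, so reads may be split between them, and the files give the symbol MYH6 to a gene with 1639, 1956, 2086, 2179 and 1087 scaled FPKM in breast and at most 0.0184 in liver. Of 29 genes of excitation and contraction coupling 25 were called lower and 0 higher (median -3.65). CASQ2, a calcium store protein, had 0.0218, 0, 0, 0 and 0.0535 scaled FPKM in liver and 1013, 1382, 1429, 1115 and 939 in breast (log2 difference -10.16 ± 0.13).

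Regulators were taken from lists chosen as myogenic or hepatic, so their direction is partly built in. Of 27 myogenic transcription factors and cofactors 19 were called lower in liver and 0 higher (median -2.24). MYOD1, the master myogenic factor, had 0.0307, 0, 0, 0 and 0.037 scaled FPKM in liver and 39.3, 44.96, 48.3, 88.6 and 67.7 in breast (log2 difference -5.79 ± 0.19). GDF8, the muscle growth inhibitor myostatin, had 0, 0, 0.104, 0 and 0 scaled FPKM in liver and 25.8, 39.4, 24.9, 34.9 and 24.7 in breast. The genes of muscle protein breakdown had 17 of 27 called lower in liver and 1 higher, the mitophagy receptor BNIP3L at 1.48 ± 0.12 (median -1.99). TRIM63, the ubiquitin ligase MuRF1, had 0.551, 0.344, 0.421, 0.459 and 0.728 scaled FPKM in liver and 144, 269, 407, 226 and 243 in breast (log2 difference -7.36 ± 0.22), and FBXO32, the ubiquitin ligase atrogin, differed by -3.14 ± 0.20.

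In the list of liver transcription factors and nuclear receptors, chosen as hepatic, 17 of 22 were called higher and 0 lower (median 2.29). Among them was CREB3L3, a membrane-bound factor of fasting and lipid genes, at 6.81 ± 0.12. With a filter of at least 5 FPKM in place of 1, 9 genes of this list were called, and with the replicate block or without breast replicate 5, 1 was called lower. Cytochrome P450, conjugation and transport genes were called higher in 26 of 33 and lower in 1, the aldehyde oxidase AOX1 (-2.84 ± 0.11), with a median of 2.77. CYP2H1, a phenobarbital-inducible P450 of chicken liver, had 302, 288, 435, 354 and 699.6 scaled FPKM in liver and 0, 0.0489, 0, 0 and 0 in breast. Of 25 genes of the growth hormone and insulin-like growth factor axis 8 were higher and 1 lower. IGF-I, the circulating growth factor, had 41.5, 23.8, 28.7, 17.4 and 15.03 scaled FPKM in liver and 1.22, 1.71, 2.42, 3.84 and 4.96 in breast (log2 difference 2.79 ± 0.31). IGFBP1, a binding protein raised by fasting and amino acid shortage in mammals, had 12.9, 17.1, 12.2, 28.9 and 40.3 scaled FPKM in liver and 0, 0.0231, 0, 0 and 0 in breast (log2 difference 4.39 ± 0.28). The tissue difference of IGFBP1 was smaller on the deficient than on the control diet, with a deficient minus control value of -1.98 on the log2 scale. IGFBP3 was the gene of this list called lower in liver, at -1.66 ± 0.12.

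Of 62 cytosolic ribosomal protein genes 37 lay within 2-fold, 2 (RPS28 and RPS29) were called lower in liver and 0 higher, with a median of -0.57. The 64 found took 7.72% to 11.4% of the FPKM sum in liver and 11.4% to 16.6% in breast. Of 59 nuclear respiratory chain genes 33 lay within 2-fold, of 36 proteasome genes 23, and of 35 aminoacyl-tRNA synthetase genes 20. Of 73 secretory pathway genes 35 lay within 2-fold and of 30 TCA cycle genes 9. Among all genes tested 47.4% did. Of 12 mitochondrially encoded proteins 10 lay within 2-fold, and they took 11.5% to 14.9% of the FPKM sum in liver and 12% to 18.1% in breast. The TCA cycle had 4 of 30 genes (13.3%) called higher in liver and 8 (26.7%) lower, beside 12.3% and 12% of all genes tested. CS, citrate synthase, was among the lower at -2.62 ± 0.21. The secretory pathway had 14 of 73 called higher and 1 lower. P4HB, a protein disulfide isomerase, was higher by 2.58 ± 0.14, and SEC61A2, a translocon subunit, was the lower one at -2.01 ± 0.15. Without scaling the median difference of all genes moved to 0.18, and then 0 respiratory chain and 1 proteasome gene were called lower, against 3 in each list with scaling.

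RPL3L, the muscle copy of ribosomal protein L3, had 0.599, 0.259, 0.496, 0.234 and 0.273 scaled FPKM in liver and 503, 694, 827, 593 and 909.6 in breast (log2 difference -8.98 ± 0.16, treat adjusted p = 2.78e-12). RPL3 itself averaged 852 ± 76.6 scaled FPKM in liver and 457 ± 99.5 in breast (SD, n = 5 each) and was not called. The files give the symbol EEF1A, elongation factor 1 alpha, to 2 entries. The entry ENSGALG00000005843, galGal4 chromosome 20, 9348414 to 9360272 had 0, 0.0792, 0, 0.12 and 0.0352 scaled FPKM in liver and 3102, 4249.6, 5322, 4522 and 3892 in breast (log2 difference -11.96 ± 0.14). The entry ENSGALG00000015917 had 3631, 3696, 3567, 3576 and 4738 scaled FPKM in liver and 1302, 1766, 1976, 1593 and 2533 in breast, and its difference of 1.09 ± 0.17 was not called. Of 48 translation factor genes 11 were called lower in liver and 0 higher (median -0.60).

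Markers of other cell types were called to varying extents, beside 12.3% of all genes tested called higher in liver and 12% lower. Of 13 macrophage and Kupffer cell markers 9 were called higher in liver and 0 lower (median 2.19). MARCO, a scavenger receptor of resident macrophages, had 100.2, 179.5, 149.8, 173 and 155 scaled FPKM in liver and 2.82, 4.53, 2.86, 4.51 and 2.6 in breast (log2 difference 5.09 ± 0.19), while CSF1R, the growth factor receptor of all macrophages, averaged 37.5 ± 8.26 in liver and 21.9 ± 4.84 in breast (SD, n = 5 each) and was not called. Of 18 fibroblast and stellate cell markers 11 were called lower in liver and 4 higher. COL1A2, a chain of type I collagen, had 22.2, 22.2, 18.8, 18.5 and 17.4 scaled FPKM in liver and 477, 595, 352, 287 and 443 in breast (log2 difference -4.34 ± 0.18), and the stellate cell gene LRAT, which stores retinol as ester, was higher in liver by 2.40 ± 0.25. Of 13 endothelial markers 5 were higher and 1 lower, with the sinusoidal scavenger receptor STAB2 at 2.87 ± 0.10 and EMCN, endomucin, at -2.59 ± 0.16. Of 8 adipocyte markers 3 were higher and 2 lower, FABP4 at -6.65 ± 0.27 and ADIPOQ, adiponectin, at -4.92 ± 0.15. Of 8 satellite cell markers 5 were lower in liver and 0 higher, against 1 higher with the replicate block or without liver replicate 3 or 5, and 2 without scaling. Of 7 erythroid markers 0 were called in either direction, and HBB, a beta globin, averaged 223 ± 151 in liver and 75.5 ± 21.1 in breast (SD, n = 5 each). Of 12 T and NK cell markers 3 were higher and 0 lower, and of 4 B cell markers 0 were called in either direction. Of 9 heterophil markers 1 (11.1%, near the share of all genes), S100A9, was higher and 0 lower. With the replicate block 3 heterophil markers were called higher, LECT2 and CATHL2 being the others. Without liver replicate 3 or 5 the count was 3 as well, and without breast replicate 2 or 5 it was 2. S100A9 was not called with library weights (treat adjusted p = 0.0671). The part of these cells in the other differences was not tested.

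The liver libraries varied among themselves in the genes of secreted proteins. Replicate 2 was the highest of the 5 liver libraries in 29 of 36 plasma proteins, 29 of 32 coagulation and complement genes and 48 of 73 secretory pathway genes, and in 24.7% of all genes tested that reached 1 scaled FPKM in liver. Replicate 5 was the lowest in 25, 21 and 48 genes of the same lists, and in 25.9% of all genes. Ribosomal proteins lay the other way, with replicate 5 highest in 42 of 62 genes and replicate 2 lowest in 37. On the second principal component, with 3.01% of the variance, liver replicates 1 and 2 lay at 25.5 and 27.4 and replicate 5 at -38.9, while the breast libraries stayed between -3.96 and 6.64. Among the breast libraries, replicate 3 was highest in 45 of 59 respiratory chain genes and 29 of 36 proteasome genes, and replicate 1 lowest in 31 and 14 of them. Replicate 3 was also highest in 21 of 30 TCA cycle and 33 of 62 ribosomal protein genes, but in 1 of 12 mitochondrially encoded genes. Breast replicate 5 was highest in 9 of 13 macrophage markers. The shares over all genes are not given here for the breast counts or the liver ribosomal counts, so these are not read as traits of the lists. Breast replicate 5 also held the largest sum of hepatocyte markers, 38.1 FPKM against 10.3 to 17.4 in the other 4 breast libraries.

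The last comparison asked whether the tissue difference was the same on the control diet. Of 10452 genes tested on both diets, 1298 were called higher in liver on the deficient diet and 1284 on the control diet, with 1095 called on both, which is 84.4% of the deficient calls and 85.3% of the control calls. For genes lower in liver the counts were 1262 and 1158, with 1000 on both, 79.2% of the deficient calls and 86.4% of the control calls, and 0 genes were called in opposite directions. Across all 20 libraries, scaled together, the difference on the deficient diet minus that on the control diet was called by limma in 492 of 10775 genes (4.57%) as higher and in 612 (5.68%) as lower. The split depended on scaling, with 1912 higher and 136 lower without scaling, 613 and 400 with upper quartile scaling, and 514 and 393 with quantile normalization. The counts also moved with single libraries. They were 304 higher and 319 lower without breast control 2, and the lower count was 382 without breast control 4, 374 without breast deficient 3 and 364 without breast deficient 4. Leaving out liver control 1, liver control 4 and liver deficient 1 together left 223 higher and 171 lower. Liver control 1 held muscle transcripts, with 248 FPKM summed over the myocyte markers against 0.767 to 1.28 in the deficient livers and 0.916 to 1.25 in the other 4 control livers.

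TTR, SPP1 and G0S2 had the largest called positive values among named genes longer than 200 nt. TTR in liver had 5469 to 12164 scaled FPKM on the deficient diet and 4948 to 10314 on the control diet, while in breast it had 2.22 to 19.1 on the deficient diet and 31.0 to 77.8 on the control diet. Its tissue difference was thus 10.52 on the deficient diet and 7.15 on the control diet, 3.37 ± 0.56 apart (SE, limma adjusted p = 0.0024). SPP1, the matrix protein osteopontin, had a tissue difference of 1.01 on the deficient diet and -2.39 on the control diet. In breast it had 5.40, 10.2, 5.58, 1.92 and 52.9 scaled FPKM on the deficient diet and 86.8 to 207 on the control diet. Breast deficient replicate 5 was thus above every deficient liver (10.3 to 24.5). LPIN1, a phosphatidate phosphatase, had a tissue difference of 0.71 on the deficient diet and 3.33 on the control diet. For FST, which binds activin and myostatin, the tissue difference was -0.34 on the deficient diet and 2.28 on the control diet. The values of LPIN1 in liver were 7.23 to 26.4 scaled FPKM on the deficient diet and 18.6 to 114 on the control diet. CKMT2 had a tissue difference of -9.19 on the deficient diet and -7.00 on the control diet. FST and G0S2 lost their call without liver control 1, liver control 4 and liver deficient 1. G0S2 also lost it without any one of breast control 2, breast deficient 3, liver control 2 and liver deficient 3 (limma adjusted p between 0.0501 and 0.0554). The summed hepatocyte markers in breast were 10.3 to 38.1 FPKM on the deficient diet and 51.2 to 120 on the control diet. TTR is one of them and makes up much of the sum on the control diet, so the sum is not independent of TTR. The part of the markers in the TTR value was not tested.

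**Figure D5:**
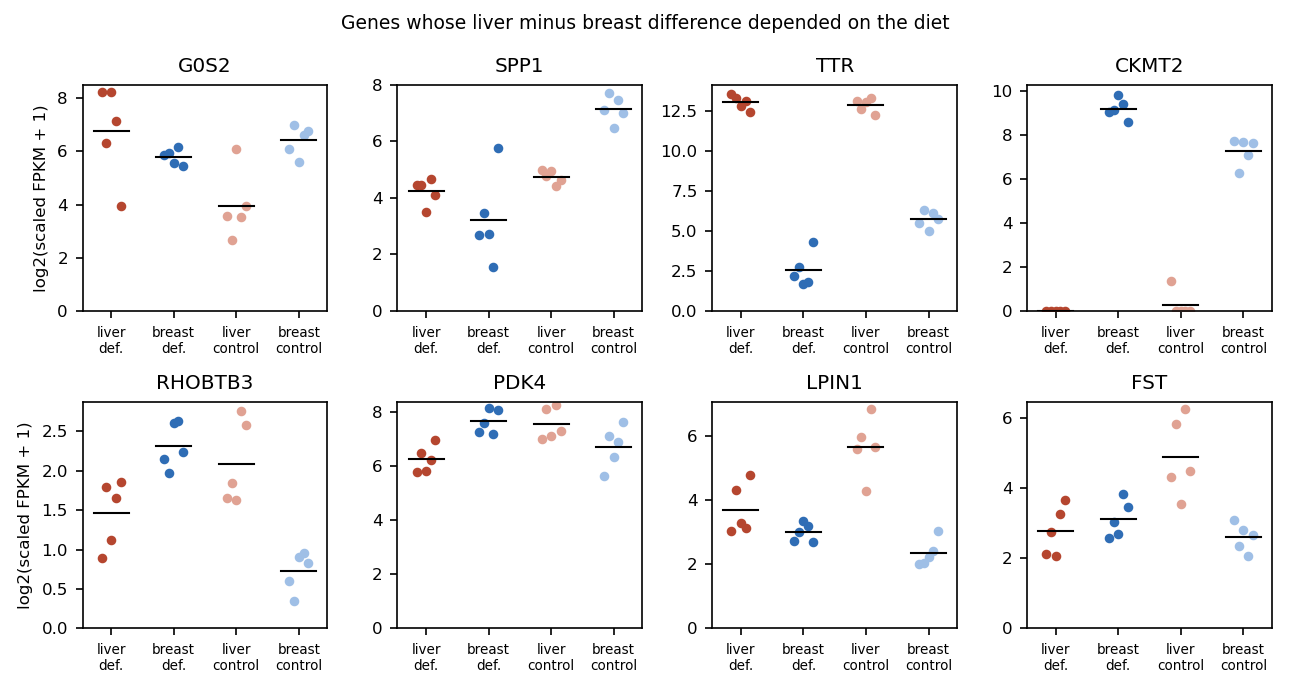
Scaled FPKM of 8 genes whose liver minus breast difference depended on the diet, on a log2(scaled FPKM + 1) axis. In each panel dots are the 5 libraries of liver and breast on the deficient diet and of liver and breast on the control diet, and the line is their mean. Breast TTR is 2.22 to 19.1 scaled FPKM on the deficient diet and 31.0 to 77.8 on the control diet.

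The median tissue difference of the methionine cycle list was 1.75 on the deficient diet and 1.73 on the control diet. For the transsulfuration list it was 1.40 and 1.80. Of 18 tested genes of the methionine cycle list 0 were called higher and 1 lower in the diet dependence, and of the 10 transsulfuration genes 0 and 1. The lower ones of the 2 lists were MMACHC and GADL1. Without scaling the counts were 2 higher and 0 lower in the methionine cycle list and 0 and 0 in the transsulfuration list, and with upper quartile scaling 1 and 1, and 0 and 0. Of 13 macrophage markers 10 were called higher, with a median of 1.17 against -0.05 over all genes tested, and 8 were so without those same 3 libraries. Their tissue difference had a median of 2.20 on the deficient diet and 1.12 on the control diet. Of 27 muscle protein breakdown genes 12 were called lower, and 7 without those 3 libraries. Of the 9 myocyte markers, most of them also on the fast sarcomere list, 4 were called lower (median -1.47). Without liver control 1, which held muscle transcripts, 8 were called lower and the median was -0.78. Without those 3 libraries 5 were called lower, again with a median of -0.78. The summed level of these markers in breast was 50803 to 64541 FPKM on the deficient diet and 35229 to 47455 FPKM on the control diet. These ranges did not overlap, and the part of the breast level in the muscle lists was not tested. Of 35 fast sarcomere genes 11 were called lower and 1 higher, against 6 and 1 without scaling and 15 and 1 without liver control 1. Of 30 TCA cycle genes 8 were called lower and 0 higher, but 2 lower and 3 higher without scaling and 3 and 0 with quantile normalization. Without the 3 libraries 8 fast sarcomere genes and 1 TCA cycle gene were called lower.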

How the data were processed

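RNA of liver and breast muscle was measured by sequencing of TruSeq libraries made from total RNA, per the labels' protocols. The authors deposited FPKM per gene and, per isoform, FPKM with coverage (a signal of mean read depth) and transcript length. Per the submitters' processing notes the tools were Bowtie 1.0.0, TopHat2 2.0.9, Cuffdiff 2.1.1 and Cufflinks 2.1.1, with galGal4, and the role of each is not given there. No file gives read counts, so no count model was fitted, and the number of reads is unknown. Strand use is not given in the sources used here, so overlapping and antisense genes cannot be told apart.

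Each file holds 17108 genes. Each of the 10 libraries was divided by its median ratio to the gene-wise geometric mean, taken over the 11394 genes above 0 in all 10. A mean of at least 1 scaled FPKM over the 10 libraries was required for testing (10576 genes, 903 of them without a symbol, with 6530 under the filter), and 2 genes, GAPDH and ACTA1, were left out for failed estimates listed at 0. ALB, which failed in all 5 liver libraries, fell under the filter for that reason. A linear model with a mean-variance trend was fitted in limma 3.58.1 under R 4.3.3 on log2(scaled FPKM + 1), with tissue as the only term. The treat test asked for more than 2-fold, two-sided, with Benjamini-Hochberg adjustment over all genes tested and a threshold of 0.05. The comparison with the control diet was an interaction in 1 fit over all 20 libraries, tested against 0. Isoform pair ratios and library values were compared by two-sided exact permutation tests in Python 3.11.15 over all labelings. The coverage and length served only to estimate assigned bases.

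The members, the 49 gene lists and the pairs were chosen with earlier results of these data known. Lists are described by counts and medians beside all genes tested, with no set test. Genes are named by a rule: the 15 largest called differences each way, all methionine and cysteine list members, up to 4 members of each other list by size of difference, pair members, and 5 interaction genes each way. Some genes that this rule takes in are not reported here. Other genes, among them single exceptions to a list's direction, FASN, GAL8, GAL10, RPL3, ribosomal and purine genes, were named after their values were seen. Of 1463 list entries 1225 were found by symbol, 30 of them by an older one. Alternatives covered scaling, pseudocount, filters, failed estimates, variance models, library weights, short features, thresholds, a replicate block and the removal of each library. The procedure was tested on simulated data.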

Additional observations from a re-analysis of the deposited data

Results flagged for a closer look

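Of 298 groups of 5 libraries looked at among the named genes and library values, 18 held 1 library far from the other 4. That is near the share of about 1 in 20 that chance gives. Breast replicate 5 was the library apart in 5 of the 18. It was high for FABP1 (5.01 scaled FPKM) and FBP1 (5.27), and low for BDH1 (23.1), RXRA (13.4) and the SLC7A5 entry ENSGALG00000005845 (18.0). Liver replicate 1 was high for the share of FPKM in the 10 highest genes (37.0%) and for the mitochondrial share (36.1%). Liver replicate 5 was high for CHAC1 (14.5 scaled FPKM) and for the EEF1A entry ENSGALG00000015917 (4738). Liver replicate 2 was high for FABP3 (4.54), liver replicate 3 for GDF8 (0.104), and liver replicate 4 was low for the GSTA3 entry ENSGALG00000016325 (54.5). Breast replicate 2 was high for PSAT1 (4.05), CYP2H1 (0.0489) and IGFBP1 (0.0231), breast replicate 3 for TAT (0.0491), and breast replicate 4 for FGB (0.572) and FGA (0.0300). The flagged values of GDF8, CYP2H1, IGFBP1, TAT and FGA lie near 0.

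The liver minus breast difference depended on the diet, by the interaction in limma, for the 10 genes with a symbol and the largest called values, 5 each way. On the log2 scale the deficient difference exceeded the control difference by 5.53 for SNORA40, 4.09 for SNORA25, 3.42 for G0S2, 3.40 for SPP1 and 3.37 for TTR. It was lower, with values of -2.62 for FST, -2.62 for LPIN1, -2.23 for PDK4, -2.22 for RHOBTB3 and -2.19 for CKMT2. SNORA40 and SNORA25 are small nucleolar RNAs under 200 nt that were listed at 0 in several libraries of each tissue. Both lost the call in most removals of a single library. The dependence was also called for 22 other genes named above, 18 with a lower and 4 with a higher value on the deficient diet. The lower values were -1.98 for IGFBP1, -1.93 for MYH6, -1.76 for FBP2, -1.61 for FBXO32, -1.48 for PKM, -1.47 for AMPD1, -1.46 for UCP, -1.36 for RPL3L, -1.34 for ACTN2, -1.29 for TRIM63, -1.16 for PFKM, -1.15 for GADL1, -1.10 for ADSSL1, -0.83 for BDH1, -0.83 for AOX1, -0.72 for MMACHC, -0.68 for IGFBP3 and -0.64 for SEC61A2. The higher values were 0.93 for FBP1, 1.10 for SLC6A6, 1.11 for CSF1R and 1.65 for the GSTA3 entry ENSGALG00000016325. Many of the lower values belong to muscle genes, and liver control 1 held muscle transcripts. Without that library the median of the 9 myocyte markers moved from -1.47 to -0.78. Without scaling, 136 in place of 612 genes were called lower over all genes tested. The values of the 22 genes under these settings are not given here.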

How the results depend on the processing

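On the deficient diet 1304 genes were called higher and 1272 lower. With library removals these ranged from 1253 to 1335 and from 1211 to 1320, and genes within 2-fold from 4853 to 5082. Without scaling the counts were 1461 and 1116, and with quantile normalization 1245 and 1374. Against 4-fold the counts were 616 and 533, and against 0 they were 3807 and 3720. Genes within 2-fold numbered 2712 with a filter of 5 FPKM and 8883 with any value above 0, as fewer or more genes were tested. With the diet dependence, 492 higher and 612 lower became 1912 and 136 without scaling, 613 and 400 with upper quartile scaling, and 514 and 393 with quantile normalization. They became 291 and 544 with the filter of 5, 726 and 1009 at an adjusted p under 0.1, and 223 and 171 without liver control 1, liver control 4 and liver deficient 1. With single library removals they ranged from 304 to 625 and from 319 to 858. Why these counts moved was not tested beyond the settings named. Same-numbered liver and breast libraries deviated together only weakly (correlations 0.0039 to 0.163), but 4 of 5 liver libraries correlated best with their own number. Whether a shared number means a shared bird is not given by the labels and was not settled here. The main test did not take the numbers as pairs. With the replicate block the counts were 1326 higher, 1263 lower and 5062 within 2-fold, and 430 and 498 for the diet dependence. For 257 named genes, 5985 values under the alternatives were compared with the main ones, tissue differences and diet dependence together. The tests against 4-fold and against 0 are not in this count. Of the values 5861 were unchanged as to the call, 68 lost the call, 56 gained it and 0 reversed with a call. A change of sign without a call counted as unchanged. Many of the lost calls were the diet dependence of SNORA25 and SNORA40. Depth is known only as assigned bases, so no floor of detection is given for a gene listed at 0.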
